A study of Sus scrofa with 6 samples.

Results

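The 9 gene rows described here belonged to the Janus kinases (JAKs) and the signal transducers and activators of transcription (STATs), the 2 protein families that carry the signal of leptin and of many cytokines from the cell surface to the nucleus. They were all rows of the deposited table whose gene symbol was JAK1, JAK2, JAK3, TYK2, STAT2, STAT3, STAT4, STAT5A or STAT6. Of these 9 symbols, 7 were found, on 9 of the 11564 rows, because STAT5A stood on 3 rows. No row carried the symbol JAK1 or STAT6, which were not analysed here under those symbols.

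RNA had been sequenced from the peripheral blood mononuclear cells (PBMCs, the lymphocytes and monocytes separated from blood) of Yorkshire pigs aged 6 months. There were 3 libraries labelled WT, from nontransgenic pigs, and 3 labelled Leptin-overexpressing, from pigs that carried an added pig leptin reading frame. The study describes this frame as driven by the pig leptin promoter. Its protocol places the frame in a vector with a green fluorescent protein gene and does not describe the cloning of a promoter. The transgenic pigs had been cloned by nuclear transfer from transfected fetal fibroblasts, and the labels name no drug or other treatment for either group. Expression was given as FPKM, fragments scaled by transcript length and by library total, so that levels of different genes can be compared.

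Cytokine receptors without an enzyme of their own hold JAKs on their inner side. Binding of the ligand brings 2 receptor chains together, the JAKs phosphorylate each other and the receptor, and STATs that dock there are phosphorylated, pair up and move to the nucleus to switch on genes. Leptin signals mainly through JAK2 and STAT3, whereas JAK3 serves the receptors that share the common gamma chain of lymphocytes, and TYK2 with STAT2 serves the type I interferon receptor. This signalling runs through phosphorylation, which RNA levels do not measure.

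LEP, the gene that encodes leptin and is carried by the transgene, was read first. WT replicate 1 had 50.0 FPKM of it, WT replicate 2 listed it at 0 and WT replicate 3 had 0.118 FPKM. Leptin-overexpressing replicate 1 also listed it at 0, and replicates 2 and 3 of that label had 18.3 and 39.3 FPKM. LEP thus went against the label in both replicate 1 libraries, and RNA from the transgene and from the pig's own gene cannot be told apart in these values. The labels were kept for every comparison, libraries are named by their labels throughout, and differences by label are also given without both replicate 1 libraries where that changed their direction or moved them by over 1.5 times. RNA of DDX3Y, a gene on the Y chromosome, also split the libraries across the labels. It was at 35.0, 31.1 and 20.4 FPKM in WT replicates 1 and 2 and Leptin-overexpressing replicate 1, and at or under 0.00917 FPKM in the other 3 libraries. The study's protocol describes the fetus that gave the donor fibroblasts as male. The near absence of DDX3Y from the libraries labelled Leptin-overexpressing replicates 2 and 3 goes against that origin, and the reason was not tested.

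None of the 9 JAK and STAT rows differed between the labels at an adjusted p under 0.05 in limma, where 0.00932% of the 10735 genes tested passed. Nor did any of them at an unadjusted p under 0.05, which 3.18% of all genes tested passed, and no row had labels that did not overlap, which 7.63% of all genes tested had. With 1 library left out, labels separate more easily in any gene. Without Leptin-overexpressing replicate 2 they did not overlap for STAT3 and the STAT5A rows ENSSSCG00000017406 and ENSSSCG00000017408, and without WT replicate 3 for STAT3. The share of all genes tested without overlap was not counted for these fits, so nothing particular to the JAK and STAT rows is read from them. By sign, 7 of the 9 rows were lower in the libraries labelled Leptin-overexpressing and 2 were higher, beside 36.9% of all genes tested that were lower. The median log2 fold change of the 9 rows was -0.11, beside 0.059 over all genes tested, and with 1 library left out it lay between -0.19 (without WT replicate 3) and -0.037 (without WT replicate 2). The FPKM summed over all rows was lower in each WT-labelled library than in any of the others, at 444888, 449653 and 449365 against 500317, 503140 and 467276 in replicates 1, 2 and 3. After median-of-ratios scaling between the libraries, 9 of the 9 rows were lower, with a median of -0.17. Of all genes tested 49.5% were then lower, with a median of 0.0022. Without WT replicate 2, 5 of the 9 rows were lower. Without both replicate 1 libraries 7 of the 9 were lower, with a median of -0.065, beside 56.8% of all genes tested with a median of -0.032. The 9 rows share the same 6 libraries, so these counts are not independent observations.

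**Figure D1:**
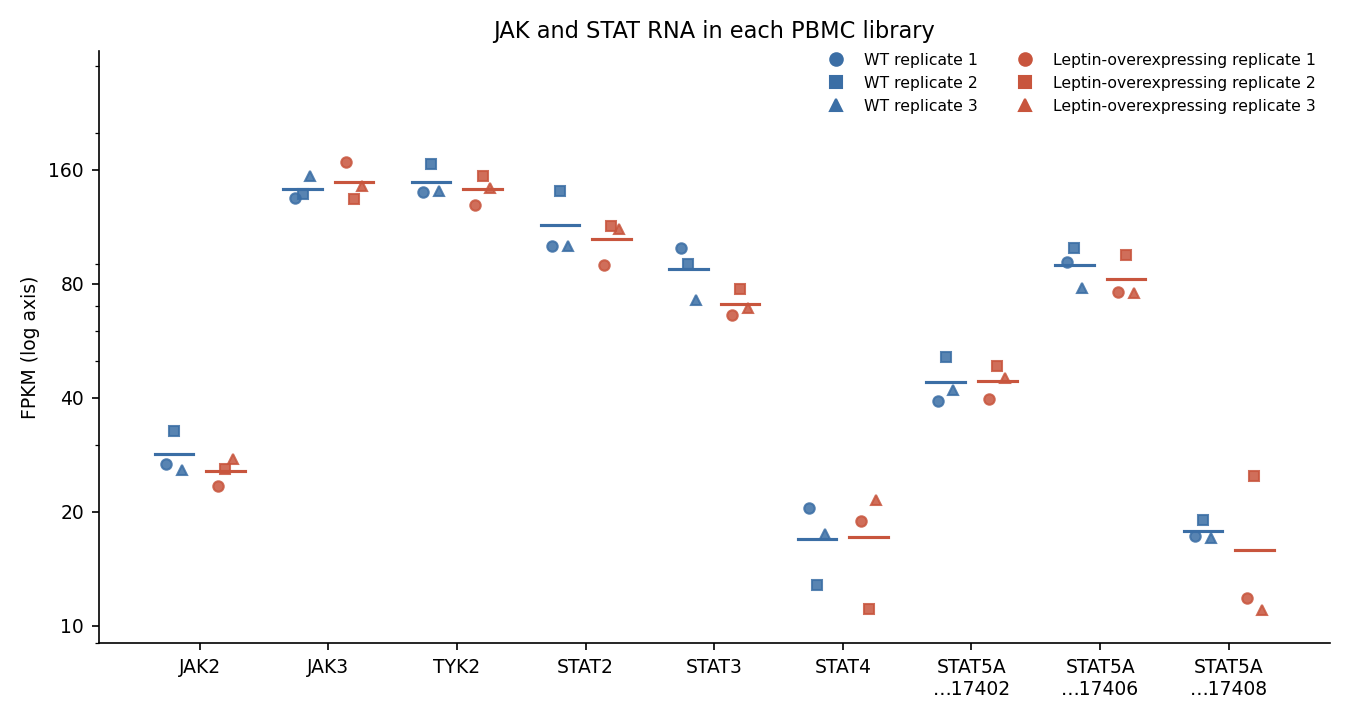
FPKM (log axis) of the 9 JAK and STAT rows in each of the 6 libraries. Blue marks libraries labelled WT, red those labelled Leptin-overexpressing, the marker shape gives the replicate number and each bar is the mean of 3 libraries. In every row the values of both labels overlap, and JAK3 and TYK2 have the highest means, with values between 129.2 and 167.7 FPKM.

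Among the kinases, JAK2, the kinase bound to the leptin receptor, was the least abundant. JAK2 (ENSSSCG00000005215, chromosome 1 from 242696462 to 242786177 as the table numbers it) was at 26.8, 32.6 and 25.8 FPKM in WT replicates 1, 2 and 3, against 23.4, 25.9 and 27.6 FPKM in the libraries labelled Leptin-overexpressing. Only WT replicate 2 stood above the range of the other label, and only Leptin-overexpressing replicate 1 stood under that of WT. The means were 28.4 ± 3.70 (SD, n = 3) and 25.6 ± 2.11 (SD, n = 3) FPKM, for a log2 fold change of -0.14 (standard error 0.15). The 95% interval ran from 0.710-fold to 1.16-fold on the FPKM + 1 scale, with an adjusted p of 0.993 in limma. Without WT replicate 2 the log2 fold change was -0.037.

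JAK3 (ENSSSCG00000013888, chromosome 2 from 59475335 to 59495969), the kinase of the common gamma chain receptors, was among the most abundant of the 9 rows. It was at 134.6, 138.2 and 153.7 FPKM in the WT-labelled libraries against 167.7, 133.7 and 144.9 FPKM in those labelled Leptin-overexpressing. The highest and the lowest value were both in libraries labelled Leptin-overexpressing, in replicates 1 and 2. Means of 142.1 ± 10.1 (SD, n = 3) and 148.8 ± 17.3 (SD, n = 3) FPKM gave a log2 fold change of 0.062 (standard error 0.15) and an interval from 0.820-fold to 1.33-fold. Its direction turned to -0.065 without both replicate 1 libraries and to -0.0039 after median-of-ratios scaling. Highest over lowest library was 1.25-fold.

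TYK2 (ENSSSCG00000013648, chromosome 2 from 69492134 to 69517757), a kinase of the interferon and interleukin 12 receptors, was at 139.4, 165.7 and 140.9 FPKM in the WT-labelled libraries. In those labelled Leptin-overexpressing it was at 129.2, 154.3 and 143.6 FPKM. As with JAK2, WT replicate 2 was the highest and Leptin-overexpressing replicate 1 the lowest library. The means of 148.7 ± 14.8 (SD, n = 3) and 142.4 ± 12.6 (SD, n = 3) FPKM differed by less than their spread, for a log2 fold change of -0.061 (standard error 0.15) and an interval from 0.754-fold to 1.2-fold. That value was 0.019 without WT replicate 2, 0.0064 without Leptin-overexpressing replicate 1 and -0.037 without both replicate 1 libraries. The other way, it was -0.13 after median-of-ratios scaling and -0.12 without Leptin-overexpressing replicate 2.

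The 3 kinases varied little from pig to pig. The SD of log2(FPKM + 1) over the 6 libraries was 0.12 for TYK2, 0.13 for JAK3 and 0.15 for JAK2. These values lie at percentiles 11.6, 12.4 and 21.8 among all genes tested, whose median SD was 0.22. In no library did the sum of the 3 kinases fall outside 300.8 to 336.5 FPKM. JAK2 made up between 7.31% and 9.70% of that sum, JAK3 between 41.1% and 52.4% and TYK2 between 40.3% and 49.3%.

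A row without a symbol, ENSSSCG00000003809 (chromosome 6 from 135899355 to 135917892 in the table), is named JAK1 by a reference table of gene names. It lies outside the rule above and was singled out after its values were seen. It was at 77.0, 78.2 and 76.5 FPKM in the WT-labelled libraries against 73.2, 58.4 and 69.5 FPKM in those labelled Leptin-overexpressing. The labels did not overlap, as in 7.63% of all genes tested. Its means were 77.2 ± 0.90 (SD, n = 3) and 67.0 ± 7.72 (SD, n = 3) FPKM. Its log2 fold change of -0.21 (standard error 0.15) had an unadjusted p of 0.191 and an adjusted p of 0.993 in limma. Under the alternatives it lay between -0.28 without both replicate 1 libraries and -0.11 without Leptin-overexpressing replicate 2. An exact two-sided permutation test gave p = 0.1, the smallest that 3 libraries against 3 can give.

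**Figure D2:**
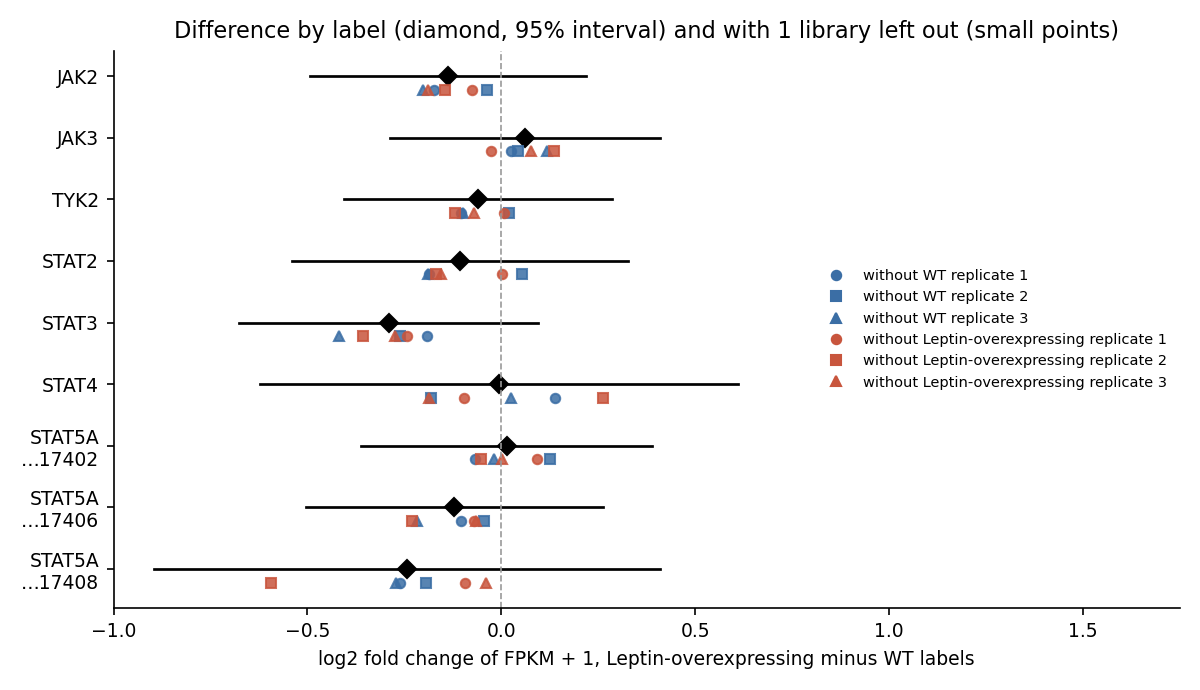
Log2 fold change of FPKM + 1, libraries labelled Leptin-overexpressing minus those labelled WT, for each JAK and STAT row. Diamonds with lines are the limma estimate from 6 libraries with its 95% interval, and small points are the estimates with 1 library left out. All 9 intervals include 0, and the estimates lie between -0.29 for STAT3 and 0.062 for JAK3.

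STAT3, the STAT most directly tied to leptin, had the largest difference between the labels among the 9 rows with all 6 libraries. STAT3 (ENSSSCG00000017403, chromosome 12 from 20711741 to 20775571) was at 99.5, 90.4 and 72.3 FPKM in the WT-labelled libraries against 66.0, 77.4 and 69.0 FPKM in those labelled Leptin-overexpressing. Replicates 1 and 2 of WT were above every library of the other label, whereas WT replicate 3 lay within its range. The mean was 87.4 ± 13.8 FPKM (SD, n = 3) for WT and 70.8 ± 5.92 FPKM (SD, n = 3) for Leptin-overexpressing. The labels differed by -0.29 on the log2 scale (standard error 0.17), with an interval from 0.626-fold to 1.07-fold, an unadjusted p of 0.12 and an adjusted p of 0.993 in limma. The exact two-sided permutation test gave p = 0.2.

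The STAT3 difference depended on which libraries entered it. It was -0.14 (standard error 0.20) without both replicate 1 libraries, and -0.42 without WT replicate 3, where its unadjusted p was 0.0363 and its adjusted p 0.614 in limma. Leaving out WT replicate 1 gave -0.19. With DDX3Y as a covariate, a fit chosen after the data were seen, it was -0.23. In 3 of the 14 alternatives the short STAT5A row ENSSSCG00000017408 had the larger difference, -0.26 without WT replicate 1, -0.59 beside -0.36 for STAT3 without Leptin-overexpressing replicate 2, and -0.31 with the DDX3Y covariate.

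STAT2 (ENSSSCG00000000396, chromosome 5 from 23280620 to 23294700), the STAT that joins IRF9 in the interferon complex, was at 100.9, 141.1 and 100.5 FPKM in the WT-labelled libraries. In those labelled Leptin-overexpressing it was at 89.9, 113.8 and 111.8 FPKM. WT replicate 2 was high and the other 5 libraries lay between 89.9 and 113.8 FPKM. The means were 114.2 ± 23.3 (SD, n = 3) and 105.2 ± 13.2 (SD, n = 3) FPKM, and the log2 fold change was -0.11 (standard error 0.19, interval 0.688-fold to 1.25-fold). It was 0.054 without WT replicate 2 and 0.00092 without Leptin-overexpressing replicate 1. The other way, it was -0.19 without WT replicate 1, -0.19 without WT replicate 3 and -0.17 after median-of-ratios scaling.

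STAT4 (ENSSSCG00000016059, chromosome 15 from 106914579 to 107074021), which acts after interleukin 12 in T and NK cells, was the least abundant STAT with a reference name. It was at 20.5, 12.8 and 17.4 FPKM in the WT-labelled libraries against 18.9, 11.1 and 21.5 FPKM in those labelled Leptin-overexpressing. Replicate 2 was the lowest library of each label, and the ranges of both labels overlapped over most of their length. The means were nearly equal, 16.9 ± 3.88 (SD, n = 3) and 17.2 ± 5.43 (SD, n = 3) FPKM, for a log2 fold change of -0.0062 (standard error 0.27). Its interval, from 0.649-fold to 1.53-fold, was wider than that of any kinase. Leaving out 1 library moved it between -0.19 and 0.26, and without both replicate 1 libraries it was 0.048.

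The symbol STAT5A stood on 3 rows of chromosome 12, and they were kept apart. The reference table names ENSSSCG00000017402 (from 20671167 to 20707385, next to STAT3) as STAT5A and ENSSSCG00000017406 (from 20835846 to 20863349) as STAT5B. In the table the STAT3 row lies between these 2 rows. STAT5A and STAT5B have closely similar coding sequences and act after interleukin 2, growth hormone and other ligands. ENSSSCG00000017408 (from 24574353 to 24576192, a locus of 1840 bp) has no reference name and lies within a row without a symbol, ENSSSCG00000026307, of 75245 bp. How reads shared by these rows were divided was not tested, so their separate levels are uncertain.

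The row that the reference table names STAT5A was at 39.1, 51.4 and 42.0 FPKM in the WT-labelled libraries against 39.6, 48.6 and 45.1 FPKM in those labelled Leptin-overexpressing. Its means of 44.2 ± 6.40 (SD, n = 3) and 44.4 ± 4.51 (SD, n = 3) FPKM gave a log2 fold change of 0.013 (standard error 0.16, interval 0.778-fold to 1.31-fold). The direction turned in 5 of the 14 alternatives, to -0.067 without WT replicate 1, -0.018 without WT replicate 3, -0.052 without Leptin-overexpressing replicate 2, -0.051 after median-of-ratios scaling and -0.012 with the DDX3Y covariate. The row it names STAT5B was more abundant in every library, at 91.5, 99.6 and 78.2 FPKM against 76.3, 95.6 and 75.8 FPKM. The labels differed by a log2 fold change of -0.12 (standard error 0.17, interval 0.705-fold to 1.2-fold), and -0.052 without both replicate 1 libraries. Leaving out 1 library moved it between -0.23 (Leptin-overexpressing replicate 2) and -0.044 (WT replicate 2). In both rows replicate 2 was the highest library of each label.

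The short row ENSSSCG00000017408 was at 17.3, 19.0 and 17.0 FPKM in the WT-labelled libraries against 11.9, 24.8 and 11.0 FPKM in those labelled Leptin-overexpressing. Leptin-overexpressing replicate 2 was the highest of all 6 libraries, and the other 2 of its label were under every library labelled WT. The log2 fold change was -0.24 (standard error 0.28), and -0.59 without Leptin-overexpressing replicate 2, with an unadjusted p of 0.00563 and an adjusted p of 0.922 in limma. Without both replicate 1 libraries it was -0.11, and it was -0.092 without Leptin-overexpressing replicate 1 and -0.041 without replicate 3 of that label. The next row of the table downstream was GHDC (from 24587266 to 24587733, a locus of 468 bp). This row was also high in Leptin-overexpressing replicate 2, at 26.6 FPKM beside 6.44 to 8.78 FPKM in the other 5 libraries. The row that contains the locus, ENSSSCG00000026307, was the other way lowest of its label in that library, at 16.4 FPKM beside 27.8 and 24.9 FPKM, and stood at 21.6, 15.02 and 21.5 FPKM in the WT-labelled libraries. A longer row that the reference table names GHDC, of 4033 bp, lies next downstream of the row named STAT5B. It was also lowest of its label in that library, at 9.18 FPKM beside 15.7 and 13.4 FPKM. In the WT-labelled libraries this longer row was at 8.84, 11.8 and 14.5 FPKM. The part of these rows in the value of ENSSSCG00000017408 was not tested.

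By mean FPKM over the 6 libraries, the order was TYK2 (145.5), JAK3 (145.5), STAT2 (109.7), the STAT5A row named STAT5B (86.2), STAT3 (79.1), the row named STAT5A (44.3), JAK2 (27.0), STAT4 (17.0) and the short STAT5A row (16.8). All 9 rows lay between percentiles 68.7 and 95.7 of mean FPKM among all 11564 rows of the table. Neighbours in this order were compared within each library by an exact two-sided paired permutation test, whose smallest p with 6 libraries is 0.031. The order came from the same 6 libraries, so the pairs and their direction were picked by the values tested. TYK2 was above JAK3 in 3 of 6 libraries (exact p = 1), and STAT4 above the short STAT5A row in 4 of 6 (exact p = 0.906), so neither pair could be ordered. JAK3 was above STAT2 in 5 of 6 libraries (exact p = 0.0625), and the row named STAT5B above STAT3 in 5 of 6 (exact p = 0.0938). The other 4 neighbouring pairs kept their order in 6 of 6 libraries (exact p = 0.031, 0.0625 after adjustment over the 8 pairs). No pair passed an adjusted p under 0.05, which 6 libraries could reach only if more pairs had the smallest p.

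With the 3 STAT5A rows summed, that symbol was at 147.3 FPKM on average, level with TYK2 and above it in 3 of 6 libraries. Of the sum of all STAT rows, STAT2 made up between 27.4% and 34.0%, STAT3 between 20.6% and 27.0% and STAT4 between 2.99% and 6.45%. That sum was 368.9, 414.3 and 327.5 FPKM in the WT-labelled libraries, and 302.6, 371.3 and 334.2 FPKM in those labelled Leptin-overexpressing. STAT3 held its largest share in WT replicate 1, at 27.0%, and its share in the other 5 libraries was between 20.6% and 22.1%.

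**Figure D3:**
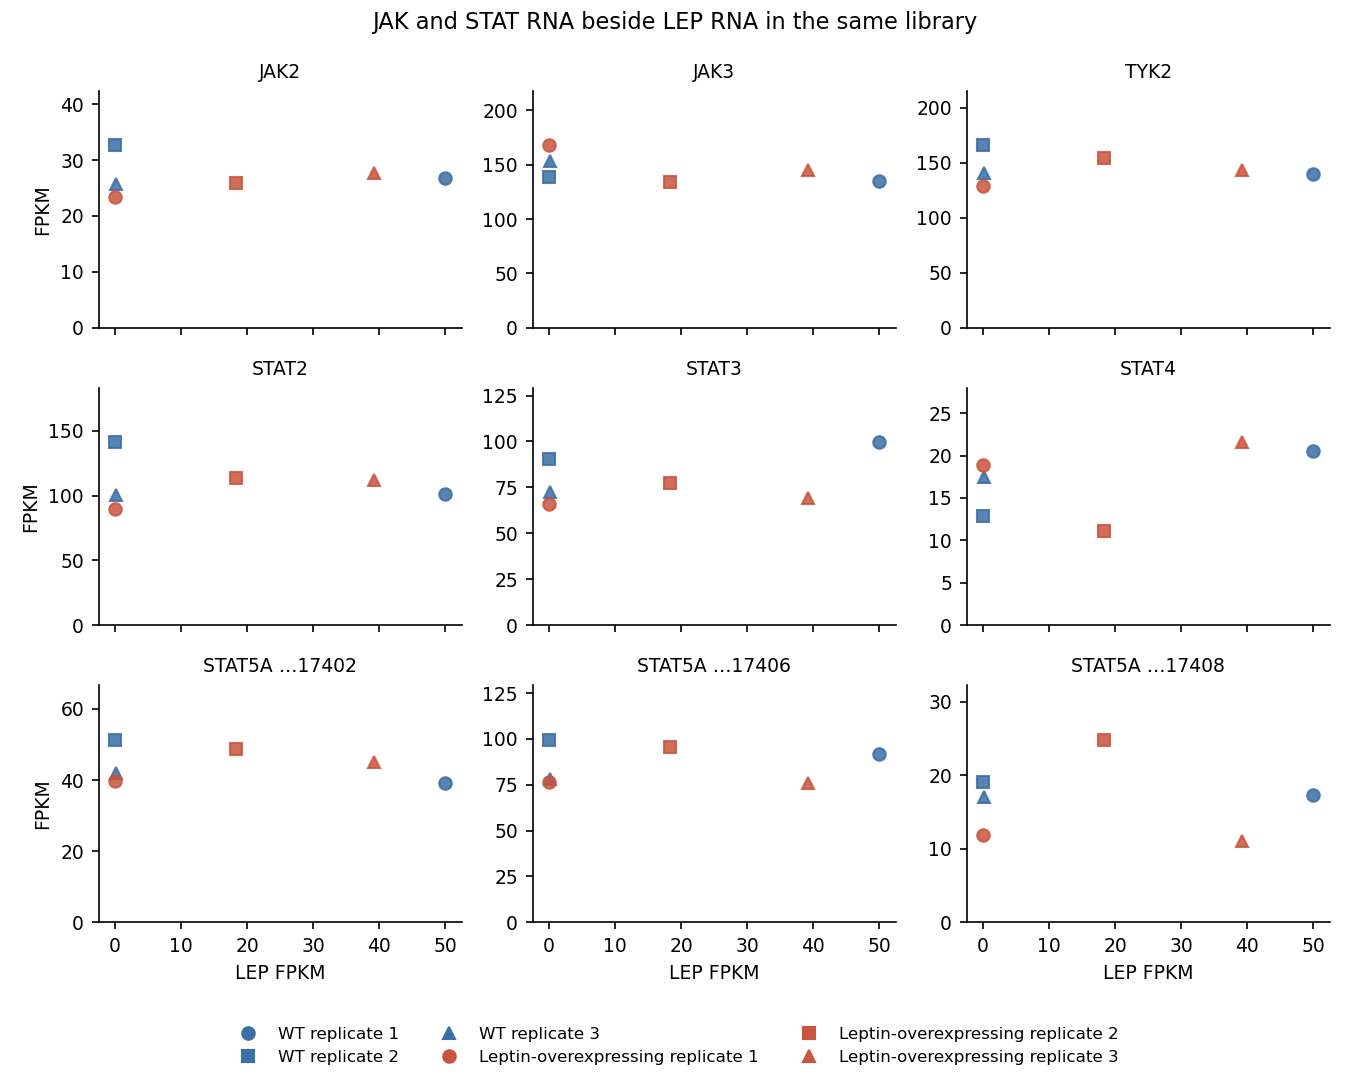
FPKM of each JAK and STAT row (vertical axis, from 0) against LEP FPKM in the same library (horizontal axis), with blue for libraries labelled WT, red for those labelled Leptin-overexpressing and marker shapes for replicate numbers. The 3 libraries with LEP at 0 or 0.118 FPKM hold both the highest and the lowest value of JAK2, TYK2 and STAT2.

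Beside LEP RNA, no member had values that followed the order of LEP through the 6 libraries. LEP was listed at 0 in both WT replicate 2 and Leptin-overexpressing replicate 1, and JAK2, TYK2 and STAT2 had their highest value in the former and their lowest in the latter. Over all genes tested, 1.44% had this pair of extremes. With the libraries in order of LEP (0 in WT replicate 2, 0 in Leptin-overexpressing replicate 1, then 0.118, 18.3, 39.3 and 50.0 FPKM), JAK2 was at 32.6, 23.4, 25.8, 25.9, 27.6 and 26.8 FPKM. STAT3 was at 90.4, 66.0, 72.3, 77.4, 69.0 and 99.5 FPKM in that order, with its highest value in the library with the most LEP and its next highest in one where LEP was listed at 0. For STAT4 the values were 12.8, 18.9, 17.4, 11.1, 21.5 and 20.5 FPKM. The LEP values fall into separate clusters of 3 libraries, so no correlation with LEP is given and the relation was not tested.

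Some libraries were high or low for many members at once. WT replicate 2 was the highest library for 5 of the 9 rows, beside 12.9% of all genes tested, and among the highest 2 for 7 of them, beside 25.5% of all genes tested. Leptin-overexpressing replicate 1 was the lowest library for 4 of the 9 rows, beside 5.11% of all genes tested. WT replicate 2 and Leptin-overexpressing replicate 1 both held RNA of DDX3Y and listed LEP at 0. The sum of 26 interferon-induced genes was 4409, 6537 and 2101 FPKM in the WT-labelled libraries and 2158, 4921 and 3022 FPKM in those labelled Leptin-overexpressing. For 20 of these 26 genes WT replicate 2 was the highest library, as it was for STAT2, JAK2 and TYK2, and the part of the interferon genes in those values was not tested.

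Cell type markers also moved with some members, and in bulk RNA fewer cells of a type and less RNA per cell cannot be told apart. Markers of T, NK and B cells and of monocytes, the cells a PBMC preparation should hold, were listed above 0 in every library except for KLRD1, an NK cell gene listed at 0 in 4 libraries. The 9 T cell markers, all found, summed to 1186, 914 and 1212 FPKM in the WT-labelled libraries and to 1363, 827 and 1413 FPKM in those labelled Leptin-overexpressing. For 8 of the 9, the lowest libraries were replicate 2 of each label, the pattern that STAT4 showed. The same held for 4 of 6 tested rows of NK cell markers, where 1 gene stood on 2 rows, and for 12% of all genes tested. With both rows of that gene included, the NK markers summed to between 136.4 and 276.0 FPKM in the WT libraries and between 120.7 and 229.3 FPKM in the others. Neutrophil markers, of cells that a PBMC preparation largely removes, were found for 7 of 10 genes and summed to 3528, 695.5 and 412.9 FPKM in the WT-labelled libraries and to 411.7, 1269 and 640.2 FPKM in those labelled Leptin-overexpressing. WT replicate 1, the highest for neutrophil markers, was also the highest library for STAT3, for the platelet and erythroid marker sums and for 11.2% of all genes tested. MMP9, of the same neutrophil list, was instead highest in Leptin-overexpressing replicate 2, at 225.3 FPKM beside 59.7 FPKM in WT replicate 1. Monocyte markers summed to between 377.6 and 868.0 FPKM and between 528.6 and 892.8 FPKM, B cell markers to between 408.4 and 754.6 FPKM and between 570.7 and 727.6 FPKM, in the same order. Platelet markers lay between 171.0 and 409.1 FPKM and between 115.7 and 368.9 FPKM, and the erythroid markers HBB and ALAS2 between 25.1 and 217.1 FPKM and between 21.8 and 102.0 FPKM. Of 6 adipocyte markers only LIPE was listed, at 6.08 to 12.4 FPKM. The part of these cell types in the JAK and STAT values was not tested.

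**Figure D4:**
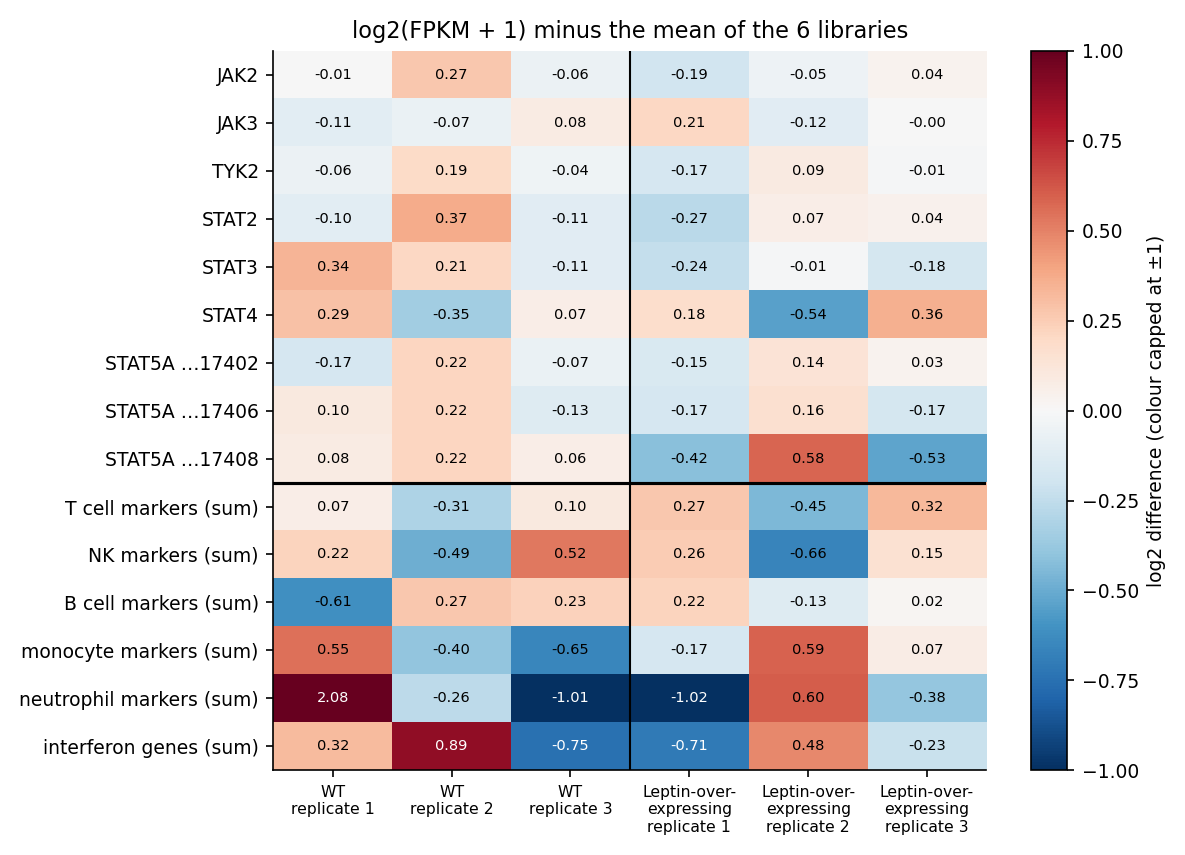
Log2(FPKM + 1) minus the mean of the 6 libraries, for each JAK and STAT row (upper rows) and for summed markers of blood cell types and interferon genes (lower rows), by library. Red is above and blue is below the mean, with colours capped at 1. STAT4 and the T and NK cell markers are lowest in replicate 2 of both labels, and STAT2 and the interferon genes are highest in WT replicate 2.

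The cytokine receptor chains of the pathway showed no call by label. Of 33 receptor symbols sought, 19 were found on 21 rows, of which 19 rows were tested, 13 lower and 6 higher in the libraries labelled Leptin-overexpressing (36.9% of all genes tested were lower), with a median log2 fold change of -0.094. Leaving out 1 library moved that median from -0.0046 (Leptin-overexpressing replicate 2) and -0.0077 (WT replicate 1) to -0.26 (WT replicate 3). It was -0.047 without both replicate 1 libraries and -0.15 after median-of-ratios scaling. None of them passed at an unadjusted p under 0.05 (3.18% of all genes tested) or had labels that did not overlap (7.63%). IL12RB2, the signalling chain of the interleukin 12 receptor that leads to STAT4, had the lowest log2 fold change of the list, -0.46 (standard error 0.35). Like STAT4, IL12RB2 was lowest in Leptin-overexpressing replicate 2, at 0.852 FPKM, and highest in replicate 3 of that label, at 4.31 FPKM. Without Leptin-overexpressing replicate 2 its log2 fold change was -0.027, and without replicate 3 of that label -0.79. In the latter fit its labels did not overlap, with an unadjusted p of 0.0317 and an adjusted p of 0.999 in limma. A short row of IL2RA (ENSSSCG00000031058), the high affinity chain for interleukin 2, had the largest positive value, 0.39 (standard error 0.44), at levels of 0.686 to 4.30 FPKM. That value was 0.20 without WT replicate 2, 0.72 without Leptin-overexpressing replicate 2 and 0.086 with the DDX3Y covariate. IL2RG, the common gamma chain that holds JAK3, was among the most abundant receptors, at 450.0, 499.3 and 454.5 FPKM in the WT-labelled libraries and 432.5, 545.4 and 505.3 FPKM in the others.

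Inhibitors of the pathway were 16 of 19 symbols found, with SOCS3, CISH and PIAS2 not listed by name. Of these 16, 10 were lower and 6 higher by label (36.9% of all genes tested were lower), with a median of -0.051. That median was 0.012 without Leptin-overexpressing replicate 2, -0.0051 without WT replicate 2 and -0.11 after median-of-ratios scaling. Of the 16, 3 had labels that did not overlap (7.63% of all genes tested) and 1 passed at an unadjusted p under 0.05 (3.18% of all genes tested). That gene was CBL, a ubiquitin ligase that marks active receptors and kinases for removal. CBL was at 15.3, 11.7 and 10.2 FPKM in the WT-labelled libraries against 7.60, 7.80 and 10.1 FPKM in those labelled Leptin-overexpressing, so the labels did not overlap, with 10.2 and 10.1 FPKM as the nearest values. Its log2 fold change was -0.49 (standard error 0.19, unadjusted p = 0.0316, adjusted p = 0.993, limma). It was -0.28 without both replicate 1 libraries, with an unadjusted p of 0.23 in limma. The unadjusted p in limma was also over 0.05 without WT replicate 1 (0.0946), WT replicate 2 (0.0529), Leptin-overexpressing replicate 1 (0.1005) or Leptin-overexpressing replicate 2 (0.0814). The same held with the replicate block, unmoderated variance and the DDX3Y covariate. It was under 0.05 without WT replicate 3 (0.0170) and without Leptin-overexpressing replicate 3 (0.0224). SOCS6 and SOCS4, of the family of suppressors of cytokine signalling, also had labels that did not overlap, with log2 fold changes of -0.28 and -0.27 and unadjusted p of 0.118 and 0.139 in limma. SOCS6 was at -0.11 without both replicate 1 libraries, SOCS4 at -0.13 without Leptin-overexpressing replicate 2, and after median-of-ratios scaling the labels overlapped for CBL and SOCS6. Under that scaling they did not overlap for SOCS4, at -0.32 with an unadjusted p of 0.0413 and an adjusted p of 0.981 in limma. SOCS1, which blocks JAKs directly, had the largest positive value, 0.15 (standard error 0.19), at 1.89 to 3.48 FPKM, and lay between 0.0092 and 0.28 with 1 library left out.

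The 9 partner genes, which bind JAKs, STATs or their complexes, were all found, 5 lower and 4 higher (36.9% of all genes tested were lower), with a median of -0.012. It was -0.038 without both replicate 1 libraries, -0.068 after median-of-ratios scaling, 0.039 without WT replicate 2 and 0.035 with the DDX3Y covariate. IRF9, the partner of STAT2, was at 169.3, 206.2 and 163.7 FPKM in the WT-labelled libraries against 166.9, 220.0 and 166.3 FPKM in the others. Replicate 2 was the highest library for IRF9 in each label, as it was for STAT2. EP300, an acetyltransferase that STATs recruit, had a log2 fold change of -0.25 (standard error 0.15), and NMI, which binds STATs, had one of 0.26 (standard error 0.20). Neither passed at an unadjusted p under 0.05 in limma. Without both replicate 1 libraries EP300 was at -0.13 and NMI at 0.13. NMI was at 0.074 without WT replicate 1 and at 0.43 without WT replicate 3.

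Genes that STATs are known to switch on were 13 of 14 symbols found, 8 lower and 5 higher by label (36.9% of all genes tested were lower), with a median of -0.040. The median turned to 0.029 without WT replicate 2, 0.027 without Leptin-overexpressing replicate 1, 0.029 without Leptin-overexpressing replicate 2 and 0.13 without both replicate 1 libraries. It was -0.10 after median-of-ratios scaling and -0.098 without Leptin-overexpressing replicate 3. JUNB, an early response factor, had the largest positive log2 fold change, 0.48 (standard error 0.21, unadjusted p = 0.0551, limma). It was 0.77 without both replicate 1 libraries, where its labels did not overlap and its unadjusted p was 0.0108 in limma. The unadjusted p was also under 0.05 without WT replicate 1 (0.0109), without Leptin-overexpressing replicate 1 (0.0465) and with 1 FPKM required in every library (0.0475), whereas without WT replicate 2 the log2 fold change was 0.29 with an unadjusted p of 0.198 in limma. BCL3, a coregulator of NF-kappa-B, had the largest negative one, -0.38 (standard error 0.28). That value rested on WT replicate 1, where BCL3 was at 113.0 FPKM beside 46.4 to 75 FPKM in the other 5 libraries, and it was -0.094 without that library and -0.064 without both replicate 1 libraries. PIM2, a kinase gene switched on by STAT5, was the only 1 of the 13 with labels that did not overlap (7.63% of all genes tested), at 10.8, 11.4 and 12.1 FPKM against 12.3, 12.8 and 17.4 FPKM (unadjusted p = 0.149, limma), and they overlapped after median-of-ratios scaling.

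Of 30 interferon-induced genes, which the complex of STAT2 and IRF9 activates, 26 were found, 24 lower and 2 higher by label (36.9% of all genes tested were lower), with a median of -0.27. The spread behind that median was wide, since it was 0.083 without WT replicate 2, -0.016 without Leptin-overexpressing replicate 1 and -0.044 without both replicate 1 libraries, but -0.56 without WT replicate 3 and -0.49 without Leptin-overexpressing replicate 2. OAS2, a sensor of double-stranded RNA, had the lowest log2 fold change, -1.11 (standard error 0.52, unadjusted p = 0.0631, limma), and lay between -1.80 without WT replicate 3 and -0.52 without both replicate 1 libraries. Without WT replicate 3 its labels did not overlap (unadjusted p = 6.5e-05, adjusted p = 0.104, limma). Its unadjusted p in limma was 0.0265 with the replicate block, 0.0496 with 1 FPKM required in every library and 0.225 without WT replicate 1. EIF2AK2, the kinase that halts translation on double-stranded RNA, was the 1 gene of the 26 with an unadjusted p under 0.05 (3.18% of all genes tested). EIF2AK2 was at 24.7, 24.3 and 13.3 FPKM in the WT-labelled libraries against 10.3, 13.1 and 12 FPKM in those labelled Leptin-overexpressing, for a log2 fold change of -0.72 (standard error 0.24, unadjusted p = 0.0185, adjusted p = 0.993, limma). It was -0.49 without both replicate 1 libraries, with an unadjusted p of 0.16 in limma, and its labels overlapped after median-of-ratios scaling. The unadjusted p in limma was also over 0.05 without WT replicate 1 (0.0656), WT replicate 2 (0.0617) or Leptin-overexpressing replicate 1 (0.059). It was under 0.05 without WT replicate 3 (0.00052), Leptin-overexpressing replicate 2 (0.0271) or Leptin-overexpressing replicate 3 (0.0349). OASL had the largest positive value, 0.23 (standard error 0.21). It was 0.089 without both replicate 1 libraries and lay between 0.078 without WT replicate 1 and 0.40 without WT replicate 3. Over the rows that the table's own KEGG column assigns to JAK-STAT signalling, JAK and STAT rows included, 55 were tested. Of these, 35 were lower and 20 higher, beside 36.9% of all genes tested that were lower. In 3 of the 55 the labels did not overlap (7.63% of all genes tested), 1 passed at an unadjusted p under 0.05 (3.18%) and 0 passed the adjusted threshold in limma. Their median was -0.071, and -0.041 without both replicate 1 libraries. After median-of-ratios scaling it was -0.13, beside 0.0022 over all genes tested, of which 49.5% were then lower. With 1 library left out it lay between -0.11 (without WT replicate 3) and -0.0013 (without WT replicate 2).

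**Figure D5:**
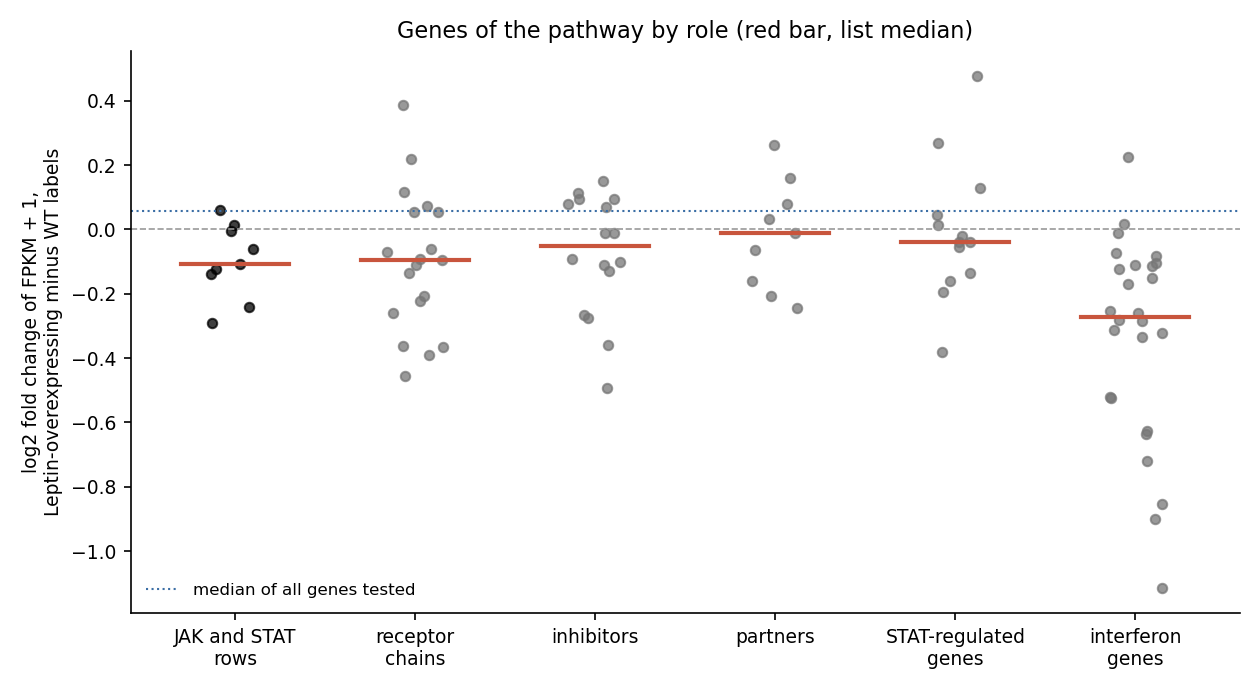
Log2 fold change of FPKM + 1 by label (vertical axis) for the JAK and STAT rows (black) and for genes of the pathway by role (grey), 1 point per row tested. Red bars are list medians, and the dotted line is the median of all genes tested, 0.059. The JAK and STAT rows lie within the range of the receptor chains, and the interferon genes reach -1.11.

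The genes most like JAK2 and STAT3 over the 6 libraries were sought among 7100 tested genes with a symbol, by Pearson's r of log2(FPKM + 1). For JAK2 these were TNFSF10 (r = 0.983), a death ligand induced by interferon, CHST11 (r = 0.970) and TAPT1 (r = 0.964), and 14 genes had r over 0.9. TNFSF10 was at 32.2, 46.3 and 30.4 FPKM in the WT-labelled libraries against 23.8, 32.1 and 32.7 FPKM in those labelled Leptin-overexpressing, so it too was highest in WT replicate 2 and lowest in Leptin-overexpressing replicate 1. For STAT3 they were SGMS1 (r = 0.995), PTK2B (r = 0.991) and ECE1 (r = 0.983), and 64 genes had r over 0.9. PTK2B, a cytoplasmic tyrosine kinase of blood cells, was at 92.8, 84.2 and 66.0 FPKM and at 64.4, 71.9 and 64.6 FPKM in the same order. These values rest on 6 libraries that differ in cell type markers and FPKM sum, and the genes were picked as the highest of many, so they are a description.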

How the data were processed

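The study's methods name Bowtie with alignment of paired-end reads to the Ensembl transcriptome (version 75) and RSEM for quantification, whereas the submitters' processing notes list FastQC, STAR 2.5, Cuffnorm and DESeq 1.22.1 without roles. The 2 descriptions were not reconciled, and the genome build itself is not given in the sources used here. The authors deposited FPKM values, 1 per gene and library, from strand-specific libraries of TRIzol-extracted RNA. The authors' log2 fold changes, p-values and FDR stand in the same deposited table and were not used. FPKM values hold no read counts, so depth is unknown and no counting interval is given. The FPKM sums were 444888 to 449653 in the WT-labelled libraries and 467276 to 503140 in the others, and were not rescaled.

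Labels were compared in R 4.3.3 with the moderated linear model of limma 3.58.1 (no intensity trend, no robust prior), which took log2(FPKM + 1) of each gene and genotype alone. The 10735 genes tested reached 1 FPKM in 3 or more libraries. Tests were two-sided with Benjamini-Hochberg adjustment over all genes tested, and intervals are 95%. Log2 fold changes on this scale understate the change of low genes. The study gives n = 3 per group for this sequencing, so each library was taken as 1 pig. The p-values in limma weigh the difference between labels against the spread between the libraries within a label. Exact tests used Python 3.11.15. In simulated data for the same comparison, 200 of 10735 genes were shifted. A log2 shift of 1 let 100 of them be called with 4 false calls, and a log2 shift of 2 let 185 be called with 13 false calls. The noise was drawn independently for each gene and library. Shifts as small as those of the JAK and STAT rows were not simulated, so recovery at such sizes is not known from these counts.

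Gene names for rows without a symbol came from a reference table, which named 1504 of 4000 such rows and 8 of the 9 JAK and STAT rows. The members and the gene lists were chosen with earlier results of these data known. The genes named are every member row, LEP, the largest rise and fall of each list, genes past an unadjusted p under 0.05 without overlap, and the 3 genes most like JAK2 and STAT3. IL2RG, IRF9, PIM2, SOCS4, SOCS6, DDX3Y, GHDC, KLRD1, MMP9, LIPE, HBB, ALAS2 and the JAK1 row were added after their values were seen. Alternatives were the pseudocount (0.1), the filter, median-of-ratios scaling, unmoderated variance, blocking by replicate number, leaving out each library, leaving out both replicate 1 libraries and, chosen after seeing the data, DDX3Y as a covariate. Running these alternatives for the named pathway genes was also chosen after seeing the data.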

Additional observations from a re-analysis of the deposited data

How the results depend on the processing

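No JAK or STAT row passed the adjusted threshold under any of the 14 alternatives. JAK2, STAT3 and the 2 STAT5A rows ENSSSCG00000017406 and ENSSSCG00000017408 were lower under each of them, and the lowest adjusted p of any row in limma was 0.614. With 1 library left out, log2 fold changes ranged from -0.027 to 0.14 for JAK3, -0.12 to 0.019 for TYK2, -0.19 to 0.054 for STAT2, -0.19 to 0.26 for STAT4 and -0.067 to 0.12 for ENSSSCG00000017402, each crossing 0. Without both replicate 1 libraries JAK3 was at -0.065 and STAT4 at 0.048. Median-of-ratios scaling gave -0.0039 for JAK3 and -0.051 for ENSSSCG00000017402, and the DDX3Y covariate 0.026 for STAT4 and -0.012 for ENSSSCG00000017402. List medians with 1 library left out ranged from -0.26 to -0.0046 for receptors, -0.087 to 0.012 for inhibitors, -0.056 to 0.039 for partners and -0.098 to 0.029 for STAT-regulated genes. After median-of-ratios scaling the medians were -0.15 for receptors, -0.11 for inhibitors, -0.068 for partners and -0.10 for STAT-regulated genes. That of the STAT-regulated genes was 0.13 without both replicate 1 libraries. The cause of these shifts was not tested. The 14 named pathway genes and the JAK1 row kept their direction under every alternative in which they could be fitted, and the short IL2RA row could not be fitted under 5 of them, and IL12RB2 under 1, for their low values. The lowest adjusted p among these genes in limma was 0.104, for OAS2 without WT replicate 3. Without WT replicate 3, 846 genes had an unadjusted p under 0.05, against 341 with all 6 libraries, and 3 passed the adjusted threshold, against 1. With the replicate block, 0 JAK or STAT rows were called, and the same-numbered libraries, which came from different pigs, had deviations correlated at -0.28, 0.13 and -0.0073, so the numbers do not pair them. Summing the STAT5A rows, or comparing levels on the linear scale, left 0 neighbouring pairs past the adjusted threshold. Precision is limited by 3 libraries per label, and read depth is unknown.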
